A study of Homo sapiens with 5 samples.

Results

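The windows described here were stretches of the human genome rich in G and C that no initiation site sequencing (ini-seq 2) origin covered. The autosomes of hg38 were laid out in windows of 1 kb from position 1, and windows holding an undetermined base were left out. Members were chosen by 2 conditions, a GC content above 70% and no base shared with any origin of the 3-hour or the 15-minute ini-seq 2 reaction. There were 1087 members among 5358 windows above 70% GC and among 2755591 autosomal windows in all. The other 4271 windows above 70% GC shared at least 1 base with an origin, and they formed the group for comparison. Since the origin lists chose the members, the absence of an origin in them is a description and not a finding. Of all autosomal windows, 1.64% shared a base with an origin.

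Replication of the human genome starts at many origins, where the double helix is opened and copied in both directions. Origins are known to lie often in CpG islands, GC-rich stretches that keep their CpG dinucleotides, that often mark gene starts and that can form G-quadruplexes (G4s), folded structures of runs of G. A high GC content can also come from other sequence, such as repeat arrays, ribosomal DNA and the repeat-rich ends of chromosomes.

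The cells were EJ30, an established human bladder carcinoma cell line, and no engineered genetic change is described for them. In ini-seq 2, nuclei from cells held in late G1 with mimosine, a drug that blocks entry into S phase, started replication in a cytosolic extract, and newly made DNA was made heavy by incorporation of bromo-dUTP for 3 hours or for 15 minutes. In short nascent strand sequencing (SNS-seq), short nascent DNA of EJ30, for which no such arrest is described, was isolated in size fractions of 0.5 to 2 kb and of 2 to 4 kb. Each reaction and each fraction was 1 deposited list of intervals, so no value here has a replicate. The paper called its 3-hour origins from pooled biological duplicates. The 3-hour and 15-minute lists held 23905 and 10181 intervals, and the SNS-seq lists held 147657 and 184966. The lists carry no read counts, so the depth behind each interval was not analysed here.

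A set of 4 stretches of 200 bases show what the windows were made of. All were read from the plus strand of hg38, lie outside annotated UTRs and have each CpG in capitals. The stretch of chr4:190066001-190066200 opens the longest unbroken row of members. The stretch of chr2:86914001-86914200, in an intron of RGPD1, comes from the member of highest GC. The stretch of chr18:33578001-33578200 comes from the member at the start of ASXL3, the gene start of highest CpG ratio with SNS-seq peaks. The stretch of chr17:81891001-81891200, at ALYREF, comes from the gene-start window with an origin that was nearest to the ASXL3 window in GC.
Longest row of members: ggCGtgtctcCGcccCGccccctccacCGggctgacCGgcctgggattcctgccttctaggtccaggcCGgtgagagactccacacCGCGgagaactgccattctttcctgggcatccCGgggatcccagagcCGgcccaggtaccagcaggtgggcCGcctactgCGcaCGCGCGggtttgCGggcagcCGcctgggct
Highest GC: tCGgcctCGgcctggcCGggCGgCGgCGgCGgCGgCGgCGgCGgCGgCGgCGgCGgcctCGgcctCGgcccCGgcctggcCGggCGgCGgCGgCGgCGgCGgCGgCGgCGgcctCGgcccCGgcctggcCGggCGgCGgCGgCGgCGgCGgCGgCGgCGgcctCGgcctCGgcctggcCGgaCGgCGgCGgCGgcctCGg
ASXL3, no origin: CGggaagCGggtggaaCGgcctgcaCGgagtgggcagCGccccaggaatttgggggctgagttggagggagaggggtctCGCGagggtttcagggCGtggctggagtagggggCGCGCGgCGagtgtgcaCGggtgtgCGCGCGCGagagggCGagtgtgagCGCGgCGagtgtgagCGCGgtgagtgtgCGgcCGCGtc
ALYREF, with an origin: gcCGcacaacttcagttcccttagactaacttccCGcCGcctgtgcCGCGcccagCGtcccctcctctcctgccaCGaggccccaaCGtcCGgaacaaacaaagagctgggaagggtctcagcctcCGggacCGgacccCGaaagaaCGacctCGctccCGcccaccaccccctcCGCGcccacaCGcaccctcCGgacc
The first of these stretches held 17 CpGs and the next 48. The ASXL3 and ALYREF stretches held 26 and 19 CpGs, and their whole windows had the same GC content of 75.4% and CpG ratios of 1.05 and 1.02. The CpG ratio is the number of CpGs over the number that the C and G counts of the window would give by chance. The equal GC content follows from how the ALYREF window was chosen, and the printed ASXL3 and ALYREF stretches had 72% and 68% GC. All 1000 bases of the ALYREF window lay in a 3-hour origin.

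Most members were made of sequence that occurs more than once in the genome. Each window was scored by the share of its words of 50 bases, the length of the reads, that occur once in the hg38 assembly on either strand. This share averaged 31.4% over the members and 99% over the windows with an origin, with medians of 24.3% and 100%. Differences given at matched GC content are means over autosomes, each counted alike, and can depart from the difference of the means over all windows. For unique words the mean over 22 autosomes was -65.9 percentage points ± 8.4 (SD), with the same sign on 22 of 22 autosomes (adjusted p = 1.3e-05, two-sided permutation test by sign flips). All 275 windows with up to 10% unique words lacked an origin, of which 114 had no unique word. The share without an origin was 97.2% of 319 windows with over 25% and up to 50% unique words, 66.7% of 144 windows with over 50% and up to 75%, and 35.4% of 113 windows with over 75% and up to 90%. It was 10.6% of 207 windows with over 90% and up to 99% unique words and 1.47% (exact 95% binomial interval 1.12 to 1.89%) of 4014 windows above 99%. The study's processing removed every read that aligned to more than one place, in ini-seq 2 and in SNS-seq alike. The part that this removal had in the absence of an origin was not tested, since the reads were not analysed here.

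**Figure D1:**
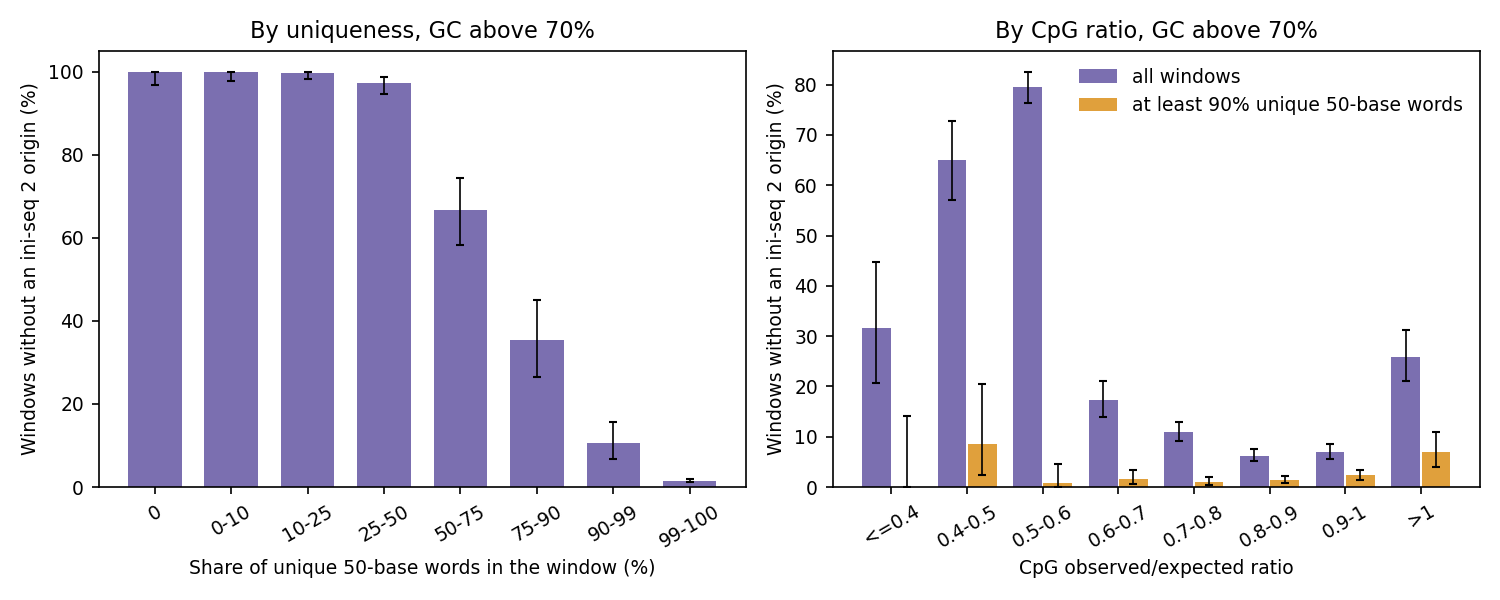
Percentage of windows above 70% GC that had no ini-seq 2 origin (y axis), by the share of unique 50-base words (left, x axis in %) and by CpG ratio (right), with exact 95% binomial intervals as error bars. The share falls from 100% to 1.47% from left to right in the first panel, and the peak of 79.6% at a CpG ratio of 0.5 to 0.6 in the second panel is 0.833% among windows with at least 90% unique words.

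The unique share divided the members into a large and a small part. Windows with at least 90% unique words are called readable here. The score rests on exact words, whereas the aligner allows mismatches, so the reads kept in the study need not follow it in every window. There were 81 readable members, 7.45% of all members, and 4140 readable windows with an origin, 96.9% of that group. Of the 4221 readable windows, 1.92% (exact 95% interval 1.53 to 2.38%) lacked an origin. Of the 1137 windows below 90%, 88.5% (86.5 to 90.3%) lacked one. These intervals cover counting error only and treat windows as independent, which neighbouring and related windows are not.

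The members were poorer in CpGs than windows of the same GC content with an origin. The CpG ratio averaged 0.655 ± 0.197 (SD over windows) in members and 0.823 ± 0.13 in windows with an origin. The GC-matched difference was -0.187 ± 0.0827 (SD, 22 autosomes), negative on 21 of 22 autosomes (adjusted p = 1.3e-05, permutation test). Chromosome 21 alone had the opposite sign, with members higher by 0.0959. A CpG ratio above 0.6, a usual limit for CpG islands, was met by 449 members (41.3%) and by 4042 windows with an origin (94.6%). The quartiles of the members were 0.525 and 0.78, and 519 of the 652 windows with a ratio over 0.5 and up to 0.6 had no origin. Among readable windows the direction turned, with a mean ratio of 0.869 in members against 0.803 in windows with an origin at their GC. The mean difference of 0.0458, over the 7 autosomes with at least 5 windows in each group, did not pass the test (adjusted p = 0.2, exact sign-flip test). With at least 50% unique words, a limit added after the data were seen, the ratio was again lower in the 217 members, by a difference of -0.0676 with the same sign on 17 of 20 autosomes (adjusted p = 0.0016, permutation test).

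A single sequence family held most of the members. Windows were joined into families where they shared at least 100 words of 24 bases on either strand. The largest family held 606 windows on all 22 autosomes, and all 606 were members, 55.7% of the members. Their CpG ratio had a median of 0.535, with quartiles of 0.516 and 0.558, and a median of 23.5% of their words were unique. Of these 606 windows, 350 lay in introns, 228 outside genes and 28 touched an exon, and 0 held the start of a protein-coding gene. Their flanks were lower in GC than those of windows with an origin, with medians of 42.7% and 51.1% over 10 kb on either side. SNS-seq peaks touched 30 of them (4.95%), and 7 (1.16%) had a peak in both fractions, against 11.3% and 4.59% of all autosomal windows. No repeat annotation was used here. Without this family the CpG ratio averaged 0.803 in 481 members against 0.815 in windows with an origin at their GC. The mean over 21 autosomes, each counted alike, was -0.0449, negative on 14 of them, and no longer passed the test (adjusted p = 0.052, permutation test).

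**Figure D2:**
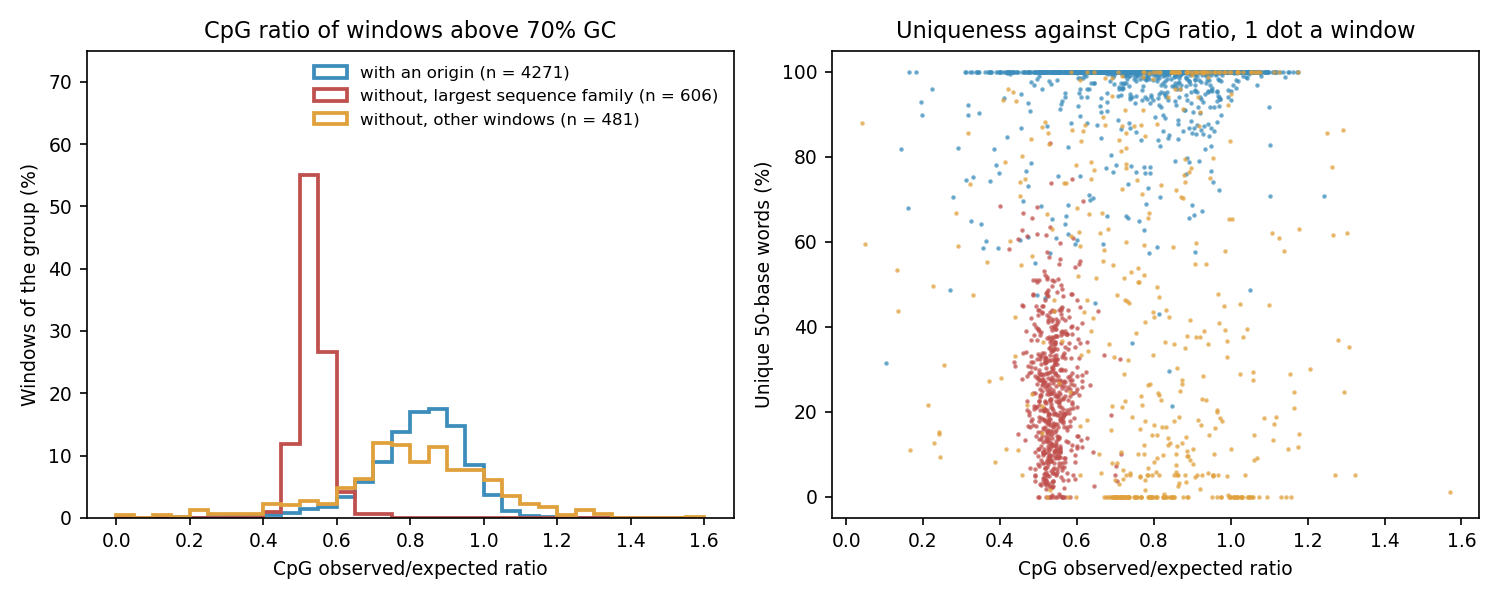
Left, distribution of the CpG ratio (x axis) as a percentage of the windows of each group (y axis), for 4271 windows with an origin, 606 windows of the largest sequence family and 481 other windows without an origin. Right, the share of unique 50-base words against the CpG ratio for the same windows, 1 dot each, where the largest family stands as a narrow column around a ratio of 0.535 and windows with an origin lie near 100% unique.

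Of the 10 longest rows of adjacent members, 9 lay in arrays of repeated units on chromosomes 4, 10 and 21, and 1 lay within a single gene. The 1087 members formed 917 rows, of which 811 were a single window. The longest had 14 windows (chr4:190066001-190080000) over DBET and the DUX4-like copies DUX4L5 to DUX4L8, with a mean of 3.31% unique words no base in an SNS-seq peak of the 0.5 to 2 kb fraction and 174 bases in peaks of the 2 to 4 kb fraction. DUX4, the gene of this array, encodes a double homeobox transcription factor of the early embryo. Rows of 8 and 6 windows on chromosome 10 (chr10:133753001-133761000 and chr10:133743001-133749000) lay over DUX4L13 to DUX4L15 and over DUX4L10 and DUX4L11. A row of 6 windows (chr4:190084001-190090000) lay over DUX4L1 and DUX4L3, and a row of 5 (chr10:133680001-133685000) over DUX4L20 and DUX4L21. A second row of 8 windows (chr8:143858001-143866000) lay in EPPK1, which encodes epiplakin, a cytoskeletal linker built of repeated plakin domains. A further 4 rows of 5 windows lay on chromosome 21, over copies of MIR6724 and transcripts near them. The family of windows on chromosomes 4 and 10 held 57 windows, all members, of which 50 had no unique word and 3 touched an SNS-seq peak. A family of 22 windows, 14 of them without a unique word, and another of 14 windows over the ribosomal genes RNA5-8SN1, RNA5-8SN2 and RNA5-8SN3 had median CpG ratios of 1.03 and 1.06. In these families the CpG ratio was above the median of 0.839 of windows with an origin, and none of the windows had an origin. Chromosome 21 also had the highest share of windows without an origin, 50.4% of 129, against 9.77% of 348 on chromosome 17, the lowest.

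In all, 905 of the 1087 members (83.3%) belonged to one of 79 families of shared sequence, against 53 windows with an origin (1.24%). Several smaller families lay at duplicated genes. One of 6 windows on chromosome 2, all members, lay in RGPD1, RGPD3 and RGPD4, with a median of 37.5% unique words. One of 5 windows, each at a gene start, lay at FAM86B1, FAM86B2 and their relatives on 4 chromosomes, with 74.8% unique words, and 3 of the 5 touched an SNS-seq peak. One of 5 windows on chromosome 16, also each at a gene start, lay at copies of MIR3180 and at PKD1, the gene of polycystin 1, and its relatives. A family of 11 windows on 10 chromosomes, all members, had a median CpG ratio of 0.525 and 85.6% unique words, and 3 of them touched an SNS-seq peak. Families could also be mixed, such as 4 windows at ESPN, which encodes the actin-bundling protein espin, and its pseudogene, where 2 were members and the other 2 had an origin. The 5 members of highest GC came from such sequence or from short tandem repeats. The highest, chr2:86914001-86915000 in RGPD1, a gene of the duplicated RANBP2-like family, had a GC content of 90.3% and 63.1% unique words. Another 3 members, on chromosome 21, followed, with 83.9, 83.6 and 83.4% GC and 0, 18.7 and 0% unique words. The fifth, chr11:402001-403000 in an intron of PKP3, which encodes the desmosomal protein plakophilin 3, had 83.3% GC and 39.5% unique words.

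Tandem repetition was more frequent in members. A window was called a tandem repeat where its bases matched those at a fixed shift of 6 to 400 bases with an identity of at least 70%. This held for 102 members (9.38%) and for 11 windows with an origin (0.258%). The GC-matched difference was 9.6 percentage points ± 4.92 (SD), with the same sign on 22 of 22 autosomes (adjusted p = 1.3e-05, permutation test). Of the 102 tandem members, 69 lay within 5 Mb of a chromosome end and 41 touched an SNS-seq peak of either fraction. Of all 1087 members, 256 (23.6%) lay that near an end and 254 (23.4%) touched such a peak, as did 11.3% of all autosomal windows.

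Members held gene starts and coding sequence less often, and 755 of them (69.5%) still overlapped an annotated gene. The start of a protein-coding gene lay in 47 members (4.32%) and in 1937 windows with an origin (45.4%). The GC-matched difference was -42 percentage points ± 5.28 (SD), negative on 22 of 22 autosomes (adjusted p = 1.3e-05, permutation test). Coding sequence was touched by 106 members (9.75%) and by 2611 windows with an origin (61.1%), a GC-matched difference of -51 points ± 7.99. Windows outside all annotated genes made up 332 members (30.5%) and 175 windows with an origin (4.1%), a difference of 26.8 points ± 8.92. With each window put in 1 class, the most frequent class was introns for members (453 windows, 41.7%) and the start of a protein-coding gene for windows with an origin. Among readable windows, 25.9% of members and 43.7% of windows with an origin at their GC held such a start. The mean difference over 7 autosomes, -22.1 points, did not pass the test (adjusted p = 0.14, exact sign-flip test). Coding sequence turned direction there, with 66.7% of readable members against 61.4% and a mean difference of 4.04 points, and windows outside genes differed by 0.842 points, neither past the test (adjusted p = 1 in both, exact sign-flip test). With at least 50% unique words, the start of a protein-coding gene stood in 12% of 217 members against 43.2%, a difference of -31 points over 20 autosomes (adjusted p = 7.8e-05, permutation test).

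Gene groups were set by the first letters of the symbol alone, so they leave out genes of the same kind under other symbols. Of 1984 windows above 70% GC over the start of a protein-coding gene, 47 (2.37%) had no origin. Of the 1926 readable ones among them, 21 (1.09%) had none. The counts of the groups below are over all windows, readable or not. For a list of 30 symbol prefixes of developmental transcription factors, such as HOX, PAX, SOX and FOX, the count was 2 of 48, at SOX1 and SOX7. All 48 of these windows were readable. BARX1, TWIST1 and PTF1A, also transcription factors with a start in a member, were not on that list. For symbols of ribosomal proteins the count was 1 of 7, at MRPL23, in a window that was not readable. It was 0 of 26 for ZNF symbols, 0 of 45 for SLC, 0 of 17 for KCN, 0 of 10 for WNT and FZD, 0 of 9 for GPR and ADGR, and 0 of 5 for COL. No window held a start with a protocadherin or histone symbol. Outside these prefixes, starts in members included MLNR, a G protein-coupled receptor.

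The SNS-seq lists took no part in choosing the members, and their peaks were also rarer in members. A peak of the 0.5 to 2 kb fraction touched 177 members (16.3%) and 4258 windows with an origin (99.7%), and 6.8% of all autosomal windows. A peak of the 2 to 4 kb fraction touched 250 members (23%) and 4269 of the 4271 windows with an origin, and 9.08% of all autosomal windows. Peaks of both fractions touched 173 members (15.9%), against 4.59% of all autosomal windows, and a peak of either touched 254 (23.4%), against 11.3%. The GC-matched difference between members and windows with an origin was -81.5 points ± 9.41 (SD) in the smaller and -75.2 points ± 7.5 in the larger fraction, negative on 22 of 22 autosomes in each (adjusted p = 1.3e-05, permutation test).

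**Figure D3:**
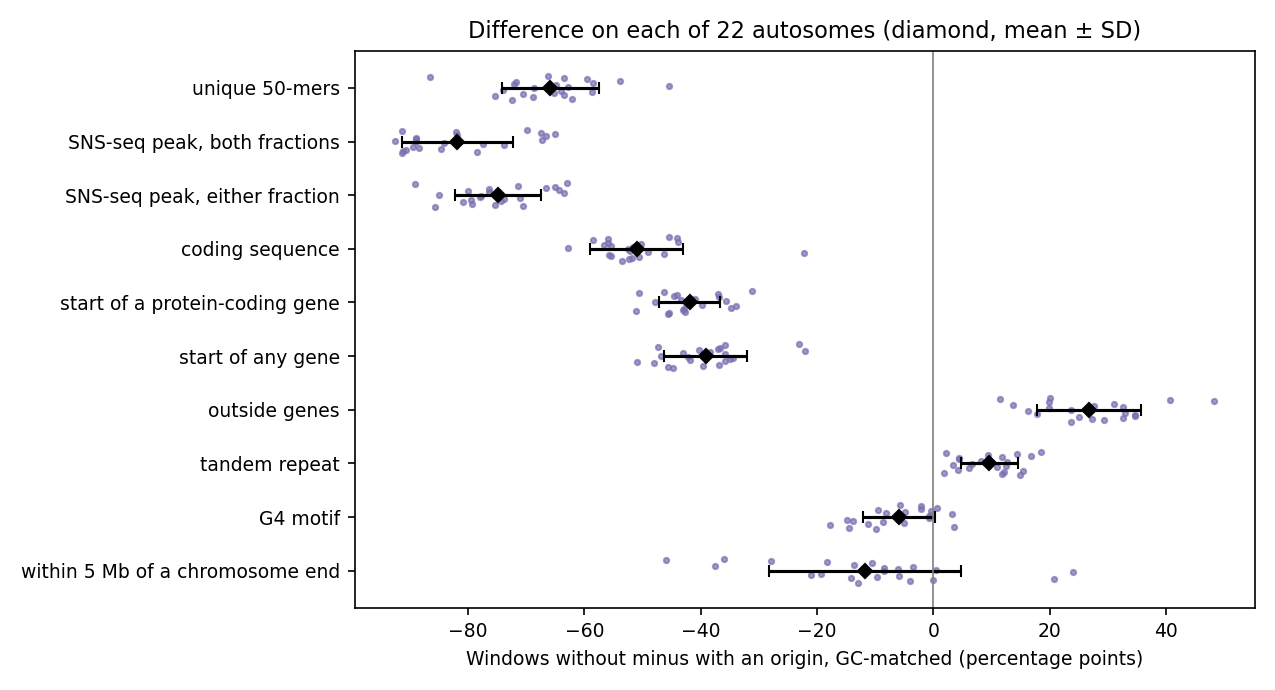
GC-matched difference between windows without and with an origin on each of the 22 autosomes (dots, x axis in percentage points), with the mean and SD over autosomes (diamonds), for 10 window features (y axis). Every autosome lies on the same side of 0 for unique words, SNS-seq peaks, coding sequence, gene starts, windows outside genes and tandem repeats, whereas dots for G4 motifs and chromosome ends fall on both sides.

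Among members, SNS-seq peaks were more frequent in classes with more unique words. A peak in both fractions was found in 5 of 275 members (1.82%) with up to 10% unique words, 10 of 285 (3.51%) with over 10 and up to 25%, and 24 of 310 (7.74%) with over 25 and up to 50%. It was found in 33 of 96 members (34.4%) with over 50 and up to 75% and in 23 of 40 (57.5%) with over 75% and below 90%. Of the 81 readable members, 78 (96.3%, exact 95% interval 89.6 to 99.2%) had peaks in both fractions, and of the 4140 readable windows with an origin 4133 had. The GC-matched difference among readable windows was -1.9 points over 7 autosomes and did not pass the test (adjusted p = 1, exact sign-flip test). At 50 to 75% unique words the groups still differed, with 44 of 48 windows with an origin having peaks in both fractions. With at least 50% unique words, 61.8% of 217 members had peaks in both fractions, against 99.6% of windows with an origin at their GC (difference -40.3 points, adjusted p = 6.5e-05, permutation test over 20 autosomes). Readable windows without an ini-seq 2 origin thus nearly all held SNS-seq peaks.

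**Figure D4:**
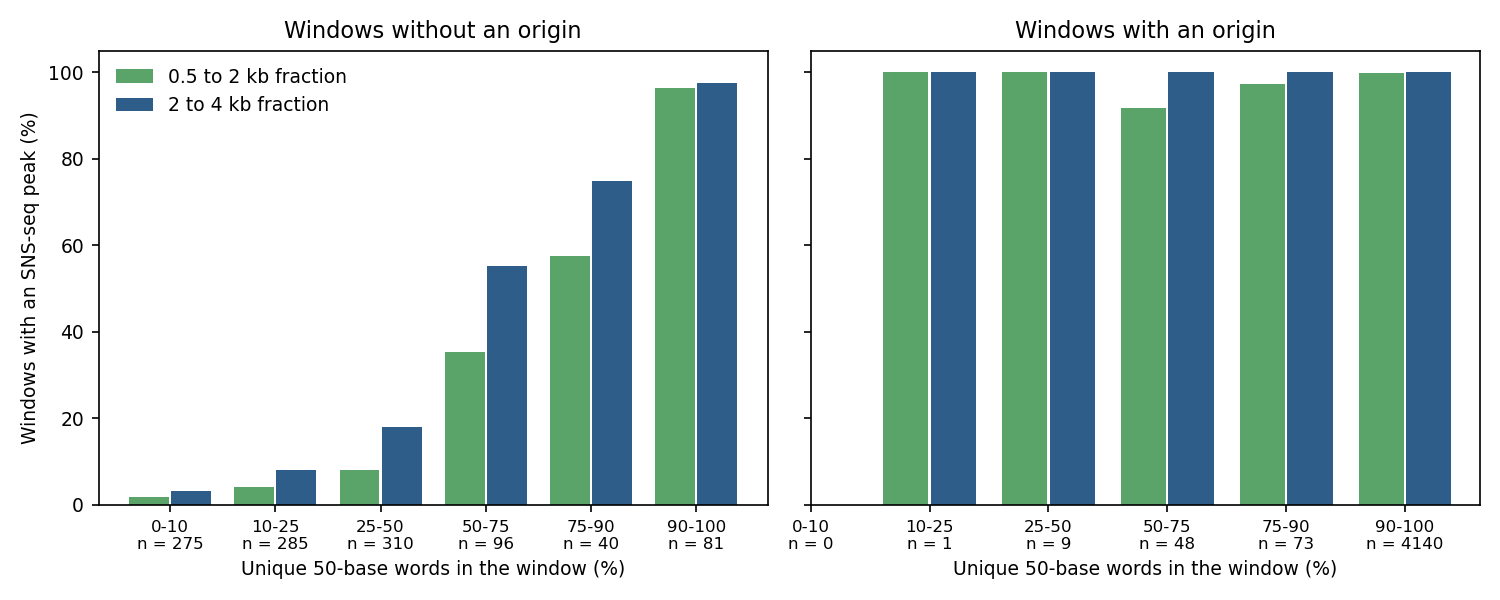
Percentage of windows above 70% GC with an SNS-seq peak of the 0.5 to 2 kb or the 2 to 4 kb fraction (y axis), by the share of unique 50-base words (x axis in %, with the number of windows), for windows without an origin (left) and with one (right). On the left the share in the 0.5 to 2 kb fraction climbs from 1.82% to 96.3%, and on the right no bar is below 91.7%, with 10 windows under 50% unique.

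The 81 readable members were GC-rich windows of unique sequence with no origin listed. Of them, 24 lay within 1 kb of an origin, 15 at 1 to 10 kb, 18 at 10 to 100 kb and 24 at 100 kb or more. The nearest ones abutted an origin, such as the windows at the starts of CTNND2 and in LONRF2 and ADRA1D. The start of a protein-coding gene lay in 21 readable members, another gene start in 7, coding sequence without a start in 36, another exon in 8, an intron in 3, and 6 were outside genes. Their CpG ratio had a median of 0.888 and was above 0.6 in 76 of them. Their GC content had a median of 71.5%, against 72.9% for readable windows with an origin. The share of readable windows without an origin was 3.15% of 920 windows above 70 and up to 71% GC, 1.48% of 943 above 73 and up to 75%, 0.752% of 931 above 75 and up to 80%, and 0 of 107 above 80% (exact 95% limit 3.39%). Over all windows, readable or not, the share had been 19% in the lowest of these steps and 40.4% in the highest.

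**Figure D5:**
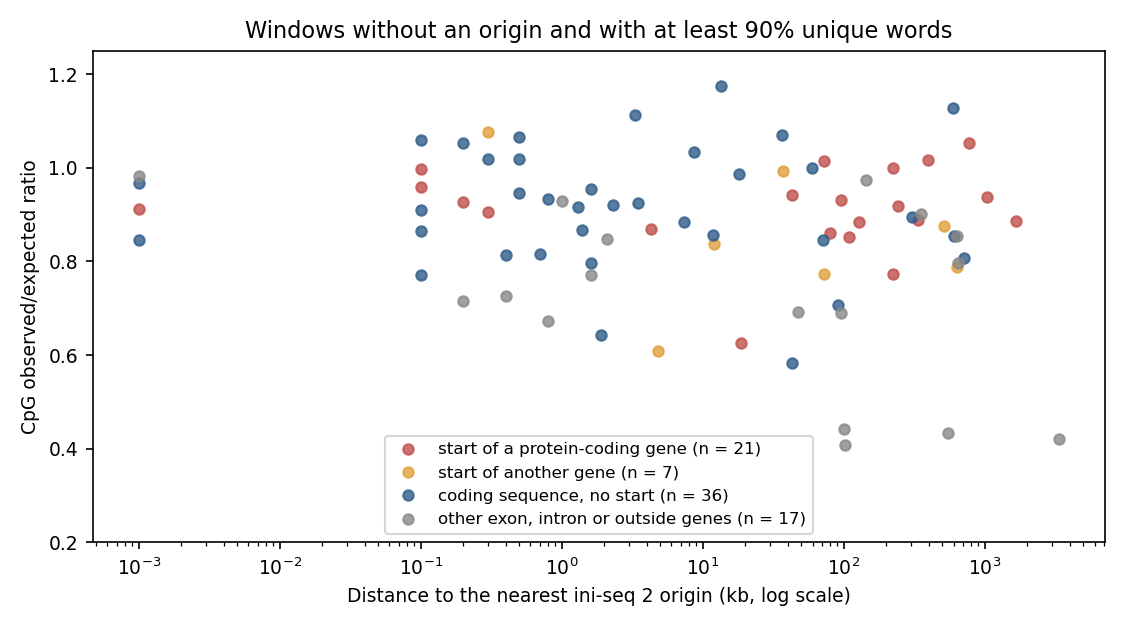
CpG ratio (y axis) against the distance to the nearest ini-seq 2 origin (x axis, kb, log scale) for the 81 members with at least 90% unique words, coloured by gene context. The 21 starts of protein-coding genes spread from windows that abut an origin to 1668 kb, and the ratio is above 0.6 in 76 of the 81.

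All 21 readable members at the start of a protein-coding gene had SNS-seq peaks in both fractions. The window with the start of TWIST1, a basic helix-loop-helix transcription factor of mesoderm (chr7:19117001-19118000), had 72.8% GC, a CpG ratio of 0.937 and 100% unique words. It lay 1030 kb from the nearest origin, and SNS-seq peaks of both fractions covered all of its 1000 bases. The start of UNC5D, which encodes a netrin receptor of axon guidance (chr8:35235001-35236000), lay 1668 kb from the nearest origin, the farthest of all members at a coding start, with a CpG ratio of 0.886. The window of ASXL3, a Polycomb-linked chromatin regulator (chr18:33578001-33579000), lay 772 kb away, and peaks of the 0.5 to 2 kb fraction covered 905 of its bases. PDZRN3, which encodes a ubiquitin ligase with PDZ domains (chr3:73624001-73625000), was at 396 kb with a CpG ratio of 1.02. These 4 windows were picked by CpG ratio with SNS-seq peaks, by distance from an origin or by both. Those values thus describe the choice. Peaks of both fractions were also found in 78 of the 81 readable members.

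Other starts of high CpG ratio lay nearer to an origin. The window shared by NT5C2, a nucleotidase, and INA, the neuronal intermediate filament internexin (chr10:103277001-103278000), was at 72.5 kb with a ratio of 1.02. MLNR, the motilin receptor (chr13:49220001-49221000), was at 223 kb with a ratio of 1. PTF1A, a transcription factor of the pancreas and cerebellum (chr10:23192001-23193000), was at 96.1 kb with a ratio of 0.931. FGD5, an exchange factor for a small GTPase (chr3:14810001-14811000), was at 42.8 kb. BMI1, a core Polycomb protein (chr10:22321001-22322000), and EPHA8, an ephrin receptor (chr1:22563001-22564000), lay 0.101 kb from an origin, and ADCY2, an adenylate cyclase (chr5:7396001-7397000), 0.201 kb. These last 3 windows were close neighbours of an origin.

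Of the 10 members at coding starts farthest from an origin, 7 were readable. The starts of HS3ST2, a heparan sulfate sulfotransferase (chr16:22814001-22815000), GALNT17, of the family of mucin-type glycosyltransferases (chr7:71132001-71133000), and SHISA9, an auxiliary protein of AMPA receptors (chr16:12901001-12902000), lay 334, 243 and 225 kb from an origin. All 3 had 100% unique words and SNS-seq peaks over 1000 bases in the 2 to 4 kb fraction. The other members of this set were duplicated genes. The window shared by NBPF14 and NOTCH2NLB (chr1:148679001-148680000) had 12.6% unique words, FAM86B1 (chr8:12194001-12195000) 32.8% and FAM86B2 (chr8:12436001-12437000) 21%. None of these 3 windows shared a base with an SNS-seq peak of either fraction.

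Developmental transcription factors named by the symbol list lay over 8 of the 81 readable members (9.88%) and over 110 of the 4140 readable windows with an origin (2.66%). The genes were SOX1, SOX7, SOX8, SOX11, FOXB2, LMX1B and NKX2-3, and SOX1 held 2 of the windows. This is a count over a list chosen with results of these data known, and no test was made of it. Of these windows, the one at SOX7 lay 109 kb from the nearest origin. The others lay 0.101 kb (LMX1B) to 4.3 kb (the farther one at SOX1) from an origin. The readable member farthest from any origin, at 3343 kb, was chr13:63741001-63742000, an intronic window with a CpG ratio of 0.421, 96.1% unique words and no SNS-seq peak of either fraction.

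Differences in G4 motifs, chromosome ends and strand asymmetry changed in size or direction with the windows used. A G4 motif, 4 runs of at least 3 G joined by 1 to 7 bases on either strand, was found in 928 members (85.4%) and 3946 windows with an origin (92.4%). The GC-matched difference was -5.91 points ± 6.13 (SD), negative on 19 of 22 autosomes (adjusted p = 0.00019, permutation test), and among windows more than 5 Mb from a chromosome end it was 0.608 points (adjusted p = 0.66). Without the largest family the G4 difference was -21.9 points (adjusted p = 2.8e-05, permutation test), and with at least 50% unique words it was -17.2 points (adjusted p = 6.5e-05, permutation test). Members lay within 5 Mb of a chromosome end in 256 cases (23.6%) against 1486 windows with an origin (34.8%), a difference of -11.8 points ± 16.5 (adjusted p = 0.0035, permutation test). Without the largest family it was 15.7 points in the other direction (adjusted p = 0.023, permutation test). The absolute GC skew, the excess of G over C or of C over G as a share of both, averaged 0.0745 in members and 0.0864 in windows with an origin (GC-matched difference -0.013 ± 0.0237, adjusted p = 0.016, permutation test), and without the largest family the difference was 0.0684 (adjusted p = 9.3e-05).

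The GC limit that defined the members cut through a continuum. With over 700 and up to 705 G or C bases per 1000, 116 of 621 windows (18.7%) lacked an origin, and with over 695 and up to 700, just outside the limit, 152 of 711 (21.4%) did. At the origin limit, 21 windows shared at most 100 bases with an origin, and 13 members lay within 100 bases of one. Their median shares of unique words were 96.1% and 66.6%. With the 3-hour list alone there would have been 1290 members. The 203 windows with a 15-minute origin only had a median CpG ratio of 0.905, and 191 of them were readable. All 203 touched an SNS-seq peak of the 2 to 4 kb fraction.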

How the data were processed

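The authors used Bowtie2 and hg38, dropped reads with more than one possible place and PCR duplicates, and called ini-seq 2 origins from heavy over light reads in 100 bp windows with a log2 ratio of at least 2, merging windows up to 500 bp apart. In the deposited 3-hour list the value of each origin is headed as a Z-score. It was at least 0.8 and was read as the efficiency, a fraction. The deposited 15-minute list also gives a score, and neither value was used here beyond the intervals. SNS-seq peaks are the authors' lists per fraction; their input library was not analysed here.

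From these, 1 kb windows, GC, CpG ratio, 50-base word uniqueness (194 sequences of hg38, alternate loci left out) and GENCODE 44 context were computed with Python 3.11.15, numpy 2.4.6 and pandas 2.3.3. Differences were taken on each autosome with at least 5 windows per group within GC steps with edges at 71, 72, 73 and 75%, weighted by members. A two-sided permutation test flipped signs over autosomes (100000 flips, or all flips where 14 or fewer autosomes entered), adjusted by Benjamini-Hochberg over 14 tests. The lowest p this allows, 1e-05, was reached by several results. Autosomes are not biological replicates and share sequence families. The test takes them as independent, so its p-values are only a rough guide and say nothing of a repeated experiment. The procedure was tested on simulated windows drawn independently of one another, which leaves the effect of shared sequence families unchecked. Members, gene lists and tests were chosen with earlier results of these data known. Windows named are the longest rows, the highest GC, and coding starts by CpG ratio with SNS-seq peaks or by distance from an origin; others were named after their values were seen.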

Additional observations from a re-analysis of the deposited data

How the results depend on the processing

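Over 14 results and 23 alternatives, 209 of 234 values kept their direction and their side of the threshold, 15 kept the direction and lost the call, and 10 turned. Most of the changes came with both groups held to at least 90% unique 50-base words, where 81 members stayed and 7 autosomes entered, so that the exact sign-flip test had little reach and a lost call does not show that the groups were alike. There the difference was 0.0458 for the CpG ratio (adjusted p = 0.2, exact sign-flip test) and, in percentage points, 4.04 for coding sequence, -22.1 for the start of a protein-coding gene, -21.6 for the start of any gene, 0.842 for windows outside genes, 3.99 for tandem repeats, -9.58 for chromosome ends, -22.1 for G4 motifs, -2.04 for SNS-seq peaks of either fraction and of the 2 to 4 kb fraction, and -1.9 for the 0.5 to 2 kb fraction and for both. The skew difference was -0.00664. With at least 50% unique words, it was -2.4 points for chromosome ends and 0.0441 for the skew. Without the largest sequence family, an alternative also added after the data were seen, it was -0.0449 for the CpG ratio, 15.7 points for chromosome ends and 0.0684 for the skew. With a CpG ratio above 0.6 in both groups, it was 8.99 points for chromosome ends and 0.0451 for the skew. With GC above 65% it was -4.47 points and 0.0139. Chromosome ends counted within 1 Mb gave 0.784 points, G4 motifs more than 5 Mb from an end 0.608 points, and windows shifted by 500 bases a skew of -0.00919. The cause of these changes was not tested. SNS-seq, gene start, coding sequence and uniqueness results kept direction and call under all other alternatives. The planned share of repeat-masked bases was not run, since the reference carries no repeat marks. No paired analysis was possible because each condition is 1 list. With 1 list a condition, the spread between experiments is unknown.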
